A study of Homo sapiens with 4 samples.

Results

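The genes described here make up a set of 30 that serve the lysosome, out of 36601 genes in the count tables. They are 14 hydrolases, 3 lumenal helper proteins (PSAP, NPC2 and GRN), 7 proteins of the lysosomal membrane, 4 genes of the proton pump and the transcription factors TFEB and TFE3. Members were chosen by symbol, cathepsins were left out, and each of the 30 symbols was found once in all 4 libraries. The cells were U-2 OS, a human osteosarcoma cell line that keeps wild-type p53. They were exposed to 4 Gy of ionizing radiation (IR) or not treated (UT), with no other agent or genetic change named in either group. Each of 2 experiments gave 1 IR and 1 UT library, so each group has 2 libraries, and the line is the only cell model. The interval between irradiation and sorting is 48 h in the series design and in the study's methods but 24 h in the treatment protocol of the labels.

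Lysosomes are acidic compartments in which worn-out organelles, membranes and material taken up from outside are digested. Soluble hydrolases work in the lumen at low pH, which a proton-pumping V-ATPase maintains, while heavily glycosylated proteins line the membrane and export products such as cholesterol. TFEB and TFE3 are related transcription factors that move into the nucleus when mTORC1 signalling at the lysosome falls, and they bind a palindromic element, the CLEAR motif, in front of many lysosomal genes. GLB1 encodes the beta-galactosidase whose activity near neutral pH is widely used as a stain for senescent cells, a state that damaged cells with high p21 can enter.

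To show which members carry this element in front of their start, RefSeq promoters (GRCh38.p14, 250 bases before to 50 bases after a start) were searched for the core CACGTG, for TCACGTGA, which holds the core, and for a full element in which TCACGTGA has a G before it and a C after it, nested motifs that each read the same on both strands. Of the 30 members 22 matched a promoter in the table, and a gene with several starts was counted once if any window held the motif. The 8 without a promoter there, which were not searched, were HEXA, ASAH1, SGSH, ARSA, PSAP, LAMP2, ATP6V1H and ATP6V1A. The core was found in 7 of the 22 (31.8%), in 12.3% of the 10723 genes that had a promoter and were tested here and in 8.77% of all 27305 genes of the table. TCACGTGA stood in 5 of the 22 (22.7%), against 2.17% of the tested genes and 1.18% of all genes, and the full element in 2 of 22 (9.09%), against 0.830% and 0.421%. The 7 members with the core were NEU1, GAA, LAMP1, CD63, MCOLN1, CLN3 and ATP6V0D1. GLB1, TFEB and TFE3 held none of these letters in their windows, and a match is a description of sequence, not a bound site. LAMP1 had 6 copies of the core, the first 192 bases before its start, and GAA had 2 copies of the full element. Stretches are shown for the 5 members that have the core and 1 promoter in the table, each 5′ to 3′ on the strand of its gene, with the longest matching motif in capitals.
NEU1: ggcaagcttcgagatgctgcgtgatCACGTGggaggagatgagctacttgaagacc
GAA: gctcccgccgGTCACGTGACccgcctctgc
LAMP1: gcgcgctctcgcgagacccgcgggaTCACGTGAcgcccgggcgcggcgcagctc
MCOLN1: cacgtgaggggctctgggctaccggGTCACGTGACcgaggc
ATP6V0D1: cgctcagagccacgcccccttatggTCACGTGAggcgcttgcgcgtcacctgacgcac
The NEU1 stretch lies on the minus strand of chromosome 6 at chr6:31862917-31862972 and that of ATP6V0D1 on the minus strand of chromosome 16 at chr16:67481185-67481242. Those of GAA (chr17:80101538-80101567), LAMP1 (chr13:113297185-113297238) and MCOLN1 (chr19:7522583-7522623) lie on plus strands. The motif begins 126 bases before the start in NEU1, 60 in ATP6V0D1, 33 in GAA, 29 in LAMP1 and 16 in MCOLN1. Their levels after irradiation are given with their groups.

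Total gene counts were 5736339 and 6186428 in the IR libraries and 5867961 and 6810079 in the UT libraries, from 247 and 248 IR cells and 358 and 367 UT cells, 1220 in all. The median IR cell held 20181 and 22036 counts, against 15663 and 17627 in UT, and gene counts per spike-in count were also higher in IR within each experiment (medians of 489 and 94.2 in IR, 310 and 79.3 in UT). Libraries shared 173 to 350 cell barcodes, as plates filled from the same primer set do, and each library came from its own plate. CDKN1A, which encodes p21, rose to 958.8 and 914.3 CPM (counts divided by the gene counts of the library and put on the usual fixed scale) in IR, against 323.7 and 277.4 in UT (edgeR adjusted p = 0.0176), in the direction its label implies. Summed markers of the bone and mesenchymal lineage stood at 4848 to 5174 CPM in IR and 5045 to 5345 CPM in UT over 10 genes, with the osteoblast factor SP7 at 0 throughout and IBSP near 0. The 8 markers of macrophages and osteoclasts, cells rich in lysosomes, summed to 8.72 and 18.9 CPM in IR, against 4.09 and 12.8 in UT. Of these CD68, itself a lysosomal membrane protein, had 5.40 and 7.44 CPM in IR, against 2.56 and 3.23 CPM in UT. PTPRC, CD14, CSF1R, AIF1 and MRC1 were also higher in IR in both experiments, each under 5 CPM. LYZ stayed at or below 0.485 CPM and ACP5 at or below 0.294 CPM, and the part of such cells in the lysosomal values was not tested. The 6 epithelial and endothelial markers summed to 18.0 and 19.2 CPM in IR, against 20.1 and 20.3 in UT.

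Across the set, lysosomal transcripts were higher in irradiated cells, by a modest factor and in most members. The median log2 fold change of the 29 members tested was 0.42 (1.33-fold), against -0.003 over all 14647 genes tested, and the members ranged from -0.15 for GUSB to 1.12 for SGSH. TFEB, at 1.29 to 1.87 CPM, fell under the filter on low counts and was not tested. In 27 of the 29 members CPM was higher in IR in both experiments (93.1%, against 44% of all genes tested), and the median log2 ratio of CPM was 0.48 in experiment 1 and 0.51 in experiment 2, beside 0.08 and 0.07 over all genes. Both IR libraries exceeded both UT libraries in 21 members (72.4%, against 30.7% of all genes tested), and in none did both lie below (18.5% of all genes). In the plot of levels by library this appears as red points to the right of blue ones in most rows.

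**Figure D1:**
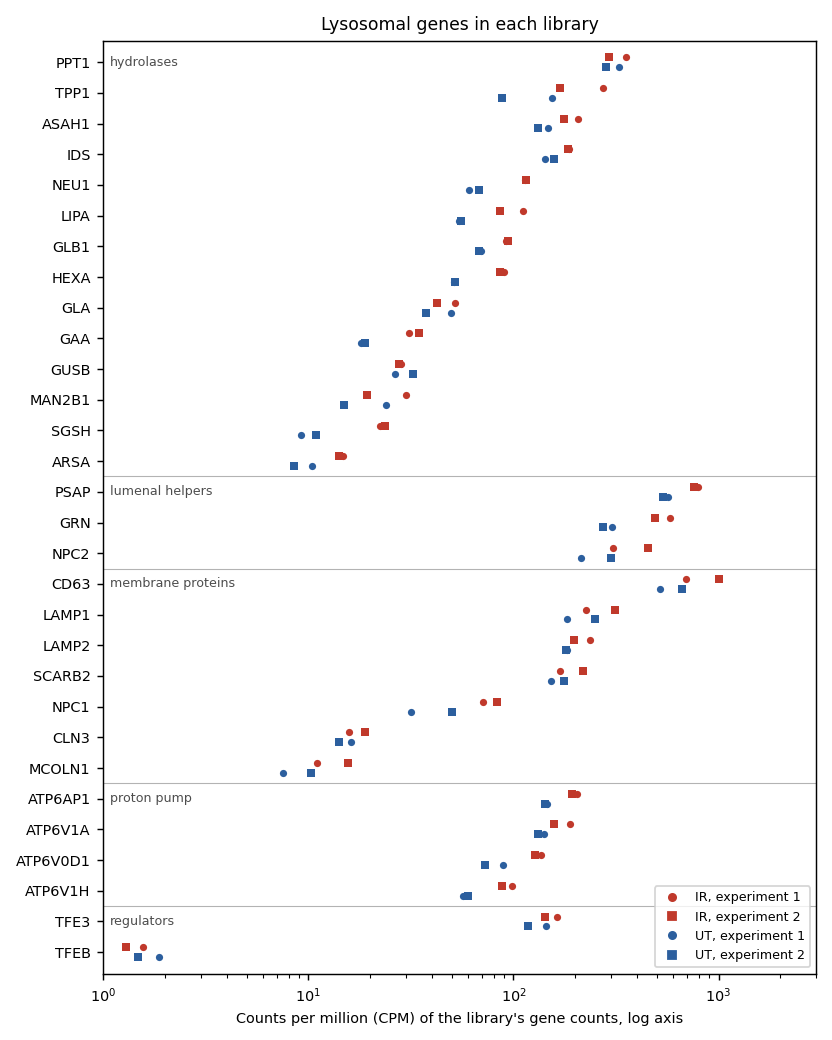
CPM of the 30 lysosomal genes on a log axis in each library, in red for IR and blue for UT, with circles for experiment 1 and squares for experiment 2, grouped by role and ordered by IR mean. SGSH lies at 22.3 and 23.8 in IR and 9.20 and 10.9 in UT, while TFEB stays under 2 CPM in all 4 libraries.

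In edgeR's quasi-likelihood test over all genes, with group as the only term, 1 member was called higher at an adjusted p under 0.05, SGSH (1.63% of all genes), and 0 were called lower (0.847% of all genes). An unadjusted p under 0.05 was reached by 12 of the 29 members tested, all of them higher. Of all 14647 genes tested, 2697 reached it, 1489 of them higher. Libraries of the same experiment deviated together, and with the experiment as a block 18 members were called higher (14.3% of all genes) and 0 lower (12.8% of all genes). DESeq2 without the block called 4 members higher (2.33% of all genes), namely SGSH, GRN, NEU1 and LIPA. In edgeR without the block, 3 members were called higher with library totals in place of TMM (2.01% of all genes), 9 with no filter on low counts (3.57%) and 2 with equal numbers of cells (1.47%). The block left 1 residual degree of freedom. The study describes its sample sets as independent, while the labels do not say how the cultures were separated, and p-values reflect only how these libraries differ. Fold changes from edgeR are given relative to the bulk of genes in each library and lie slightly below the ratios of CPM.

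**Figure D2:**
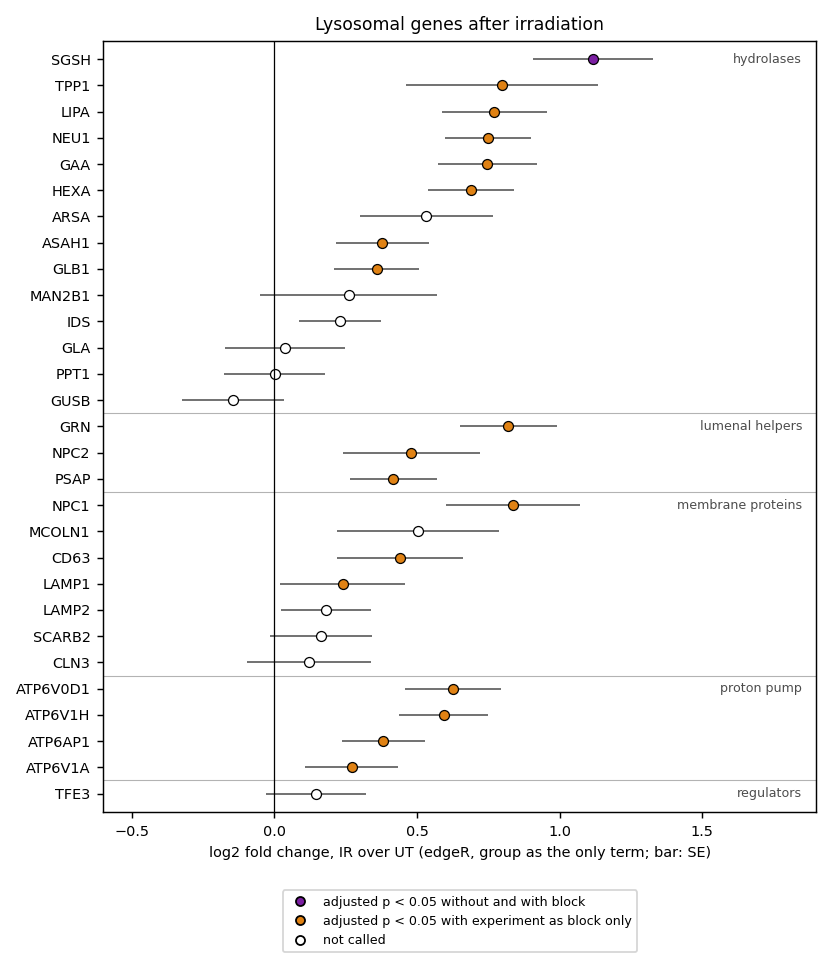
Log2 fold change of IR over UT for the 29 members tested, from edgeR with group as the only term, with bars for the standard error and genes grouped by role. SGSH at 1.12 is called without and with the experiment as a block, 17 more members are called with the block alone, and GUSB at -0.15 is the 1 member below 0.

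The hydrolases ranged from SGSH, 2.17-fold higher in IR, to genes near level. Of 14 tested, 1 was called higher and 0 lower without the block (1.63% of all genes higher, 0.847% lower). With the block 8 were called higher (14.3% of all genes), and the median log2 fold change was 0.46. SGSH, the sulfamidase that removes sulfate from heparan sulfate, reached 22.3 and 23.8 CPM in IR, against 9.20 and 10.9 CPM in UT. The groups do not overlap, and SGSH rose 2.17-fold (log2 fold change 1.12, SE 0.21, edgeR adjusted p = 0.0478). This call was lost with any 1 library left out, at edgeR adjusted p-values of 0.0888 to 0.138. GENCODE release 44 places SGSH (ENSG00000181523) on the minus strand of chromosome 17 at 80206716 to 80220923 (GRCh38), where its exons share 230 bases with CARD14 on the other strand.

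NEU1, the lysosomal sialidase, stood at 114 and 115 CPM in IR, against 61.0 and 68.3 CPM in UT. The 2 IR libraries lay close together and well above both UT libraries, and the gene was not called without the block (1.68-fold, log2 fold change 0.75, SE 0.15, edgeR adjusted p = 0.0547), but it was with it (3.55e-08) and by DESeq2 (0.0292). LIPA, the acid lipase that frees cholesterol from its esters, had 112 and 85.8 CPM in IR, against 54.0 and 55.7 CPM in UT, with the higher IR value in experiment 1 (1.71-fold, edgeR adjusted p = 0.0814; 1.68e-07 with the block). GAA, which breaks down glycogen and carries 2 copies of the full element, had 31.0 and 34.6 CPM in IR, against 18.1 and 18.9 CPM in UT (1.68-fold, edgeR adjusted p = 0.0773; 1.10e-04 with the block). HEXA, a subunit of hexosaminidase, had 90.3 and 85.5 CPM in IR, against 51.3 and 52.0 CPM in UT (1.61-fold, edgeR adjusted p = 0.0689; 1.42e-06 with the block). In each of these 4 genes the IR and UT ranges were apart by more than either group's spread.

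TPP1, a peptidase that trims tripeptides, shows what the block changes. It measured 274 and 169 CPM in IR, against 154 and 87.8 CPM in UT, so that experiment 1 was far above experiment 2 in both groups. The ratio was alike in the 2 experiments (1.78-fold and 1.92-fold), and the edgeR adjusted p was 0.279 without the block and 9.48e-11 with it. ASAH1, the acid ceramidase, had 207 and 176 CPM in IR, against 147 and 132 CPM in UT (1.30-fold, edgeR adjusted p = 0.281; 0.00158 with the block).

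GLB1 had a difference close to that of ASAH1. It stood at 92.2 and 93.6 CPM in IR, against 69.7 and 67.5 CPM in UT (means of 92.9 ± 0.975 CPM in IR and 68.6 ± 1.52 CPM in UT, SD, n = 2 libraries each). Both IR libraries lay above both UT libraries, and the ratio of CPM was 1.32-fold in experiment 1 and 1.39-fold in experiment 2. The edgeR log2 fold change was 0.36 (SE 0.15, 1.28-fold, adjusted p = 0.259), which is not called. With the block the edgeR adjusted p was 0.00946, whereas DESeq2 gave 0.609. With 1 library left out the log2 fold change of GLB1 ranged from 0.32 to 0.39. Its difference lay between the median of the hydrolases and that of the membrane proteins, and no test of GLB1 against other members was made. GLB1 (ENSG00000170266) lies on the minus strand of chromosome 3 at 32996609 to 33097202 (GENCODE release 44, GRCh38), and its exons share 253 bases with TMPPE on the same strand.

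The remaining 6 hydrolases were called in neither fit. ARSA, the arylsulfatase that acts on sulfatide, had 14.8 and 14.1 CPM in IR, against 10.4 and 8.52 CPM in UT, and IDS, the iduronate sulfatase, had 186 and 185 CPM in IR, against 143 and 157 CPM in UT. Their groups did not overlap, and edgeR with the block gave adjusted p-values of 0.0520 for ARSA and 0.0668 for IDS. MAN2B1, the lysosomal alpha-mannosidase, had 29.8 and 19.2 CPM in IR, against 23.9 and 14.98 CPM in UT, with experiment 1 above experiment 2 in both groups and ratios of 1.249-fold and 1.284-fold within the experiments. PPT1, which removes palmitate from proteins, was the most abundant hydrolase but lay level, at 353 and 293 CPM in IR, against 329 and 283 CPM in UT. GLA, the alpha-galactosidase, had 52.0 and 42.4 CPM in IR, against 49.6 and 37.4 CPM in UT, and GUSB, the beta-glucuronidase, had 28.4 and 27.8 CPM in IR, against 26.6 and 32.3 CPM in UT. IR and UT ranges overlapped in these last 4, although MAN2B1, PPT1 and GLA were each higher in IR within both experiments.

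The 3 lumenal helpers were all higher in both IR libraries than in either UT library (30.7% of all genes). All 3 were called higher with the block (14.3% of all genes) and none without (1.63%). GRN, the precursor of the granulins, had 583 and 489 CPM in IR, against 301 and 274 CPM in UT. It was just short of the threshold without the block (1.77-fold, log2 fold change 0.82, SE 0.17, edgeR adjusted p = 0.0588), passed it by DESeq2 (0.00459) and with the block had an edgeR adjusted p of 1.57e-12. PSAP, which is cut into the saposins that help hydrolases reach sphingolipids, had 791 and 760 CPM in IR, against 565 and 535 CPM in UT (1.33-fold, edgeR adjusted p = 0.209; 5.37e-05 with the block). NPC2, the soluble carrier that hands cholesterol to NPC1, had 307 and 451 CPM in IR, against 215 and 299.7 CPM in UT (1.40-fold, edgeR adjusted p = 0.350; 1.45e-05 with the block). For NPC2 experiment 2 was the higher one in both groups, the reverse of TPP1.

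Membrane proteins had the smallest median of the structural groups, 0.24 on the log2 scale. Of 7 tested, 0 were called without the block and 3 were called higher with it (14.3% of all genes). NPC1, which moves cholesterol out of the lysosome, differed most, with 70.8 and 83.4 CPM in IR, against 31.7 and 49.9 CPM in UT (1.79-fold, log2 fold change 0.84, SE 0.23, edgeR adjusted p = 0.118; 4.44e-08 with the block). Without UT replicate 2 alone NPC1 passed the threshold (edgeR adjusted p = 0.0386). CD63, a tetraspanin of late endosomes and lysosomes, had 695 and 1002 CPM in IR, against 520 and 665 CPM in UT (1.36-fold, edgeR adjusted p = 0.356; 3.86e-05 with the block). CD63 is the only member that averaged 20 counts or more per cell in a library, a level near the ceiling that 6-base tags set.

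The LAMP proteins, which coat the inner face of the membrane, differed little for their abundance. LAMP1 had 225 and 313 CPM in IR, against 183 and 249 CPM in UT, so the groups overlapped although each experiment showed the same direction (1.18-fold, edgeR adjusted p = 0.639; 0.0447 with the block). LAMP2 had 235 and 197 CPM in IR, against 182 and 179 CPM in UT (1.13-fold, edgeR adjusted p = 0.622; 0.171 with the block). SCARB2, the receptor that carries glucocerebrosidase to the lysosome, had 168 and 219 CPM in IR, against 152 and 176 CPM in UT, and its groups overlapped. MCOLN1, a calcium channel of the membrane with the full element next to its start, had 10.98 and 15.7 CPM in IR, against 7.50 and 10.3 CPM in UT. It was not called at this depth (1.42-fold, log2 fold change 0.50, SE 0.28, edgeR adjusted p = 0.411; 0.0801 with the block). CLN3, a membrane protein lost in juvenile Batten disease, had 15.9 and 18.9 CPM in IR, against 16.2 and 14.1 CPM in UT, without a common direction in the 2 experiments.

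All 4 genes of the proton pump were higher in both IR libraries than in either UT library (30.7% of all genes). All 4 were called higher with the block (14.3% of all genes) and none without (1.63%), with a median log2 fold change of 0.49. ATP6V0D1, a subunit of the membrane-embedded V0 part, had 135 and 127 CPM in IR, against 88.8 and 72.4 CPM in UT (1.54-fold, edgeR adjusted p = 0.110; 9.84e-07 with the block). ATP6V1H, a regulatory subunit of the V1 part, had 98.3 and 87.8 CPM in IR, against 56.8 and 60.1 CPM in UT (1.51-fold, edgeR adjusted p = 0.104; 2.25e-05 with the block). Differences were smaller in the catalytic subunit ATP6V1A, with 189 and 157 CPM in IR, against 141 and 131 CPM in UT (1.21-fold, edgeR adjusted p = 0.444; 0.0336 with the block). The accessory subunit ATP6AP1 had 204 and 194 CPM in IR, against 146 and 142 CPM in UT (1.30-fold, edgeR adjusted p = 0.220; 0.00120 with the block).

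The regulators lay near level or near the limit of detection. TFEB had 1.57 and 1.29 CPM in IR, against 1.87 and 1.47 CPM in UT, and its groups overlapped. After each cell was thinned to 8000 UMIs (molecular tags), the share with TFEB was 0.433% (95% exact binomial interval 0.0110 to 2.39, counting error only) and 0.431% (0.0109 to 2.38) of IR cells, against 0.901% (0.186 to 2.61) and 1.97% (0.794 to 4.01) of UT cells. A difference in TFEB transcripts was not detectable at this depth. TFE3 was well expressed, at 164 and 142 CPM in IR, against 144 and 117 CPM in UT, a log2 fold change of 0.15 (SE 0.18, edgeR adjusted p = 0.735; 0.278 with the block). Its ranges overlapped, although each experiment had the higher value in IR (1.14-fold and 1.21-fold). Beside this, the median was 0.46 for the hydrolases and 0.24 for the membrane proteins, a difference that was not tested. TFEB (ENSG00000112561) lies on chromosome 6 at 41683978 to 41736259 and TFE3 (ENSG00000068323) on chromosome X at 49028726 to 49043410, both on the minus strand (GENCODE release 44, GRCh38). Both factors act through their place in the cell, which transcript counts do not measure.

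Genes of the same pathways outside the set had medians above 0 in each list, close to 0 for sorting. The counts that follow stand beside 1.63% of all genes called higher without the block and 14.3% with it, and 0.847% and 12.8% called lower. Of 22 other hydrolases, 1 was called higher and 0 lower without the block and 11 higher with it (median log2 fold change 0.38). The gene called was FUCA1, the lysosomal fucosidase, which rose 2.61-fold to 31.0 and 27.2 CPM in IR, against 8.52 and 12.5 CPM in UT (edgeR adjusted p = 0.0403). Among 18 other membrane proteins tested 0 were called without the block and 7 higher with it (median 0.27), with the smallest p-values for the transporter SPNS1 (1.63-fold, edgeR adjusted p = 0.109) and the channel TPCN2 (1.45-fold, 0.234). Of 13 other proton pump subunits tested 0 were called without the block, and 10 were higher and 1 lower with it (median 0.36). ATP6V0E1, a small V0 subunit, had 182 and 194 CPM in IR, against 121 and 119 CPM in UT (1.48-fold, edgeR adjusted p = 0.0927), and ATP6V1B2, a V1 subunit, differed 1.45-fold (0.164).

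Among 19 relatives and controllers of TFEB, such as the Rag GTPases, folliculin and calcineurin, 1 rose and 0 fell without the block, and 7 were higher and 1 lower with it (median log2 fold change 0.22). The one that rose was TFEC, the fourth factor of the TFEB family, which reached 16.4 and 12.0 CPM in IR, against 2.56 and 1.32 CPM in UT (6.95-fold, log2 fold change 2.80, SE 0.38, edgeR adjusted p = 0.0243). Of 22 autophagy genes tested 2 rose, 0 fell, and 10 were higher and 1 lower with the block (median 0.24). These were WIPI1, which binds lipids of the forming autophagosome (1.92-fold, edgeR adjusted p = 0.0389), and the ATG8 family member GABARAPL1 (1.80-fold, 0.0482). Sorting to the lysosome, through mannose 6-phosphate receptors, adaptors and retromer, lay level, with a median of 0.01 over 18 genes, 0 called without the block and 2 of 18 higher with it, a share below the 14.3% of all genes, among them GNPTG (1.38-fold). GGA2, a sorting adaptor, had a log2 fold change of -0.36 (edgeR adjusted p = 0.429). The 27 genes of the ER and Golgi, compartments that lysosomal proteins pass through, had a median of 0.15, with 0 called without the block and 6 higher and 1 lower with it; the translocon subunits SSR3 (1.79-fold, edgeR adjusted p = 0.0821) and SSR4 (1.34-fold, 0.312) had the smallest p-values.

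**Figure D3:**
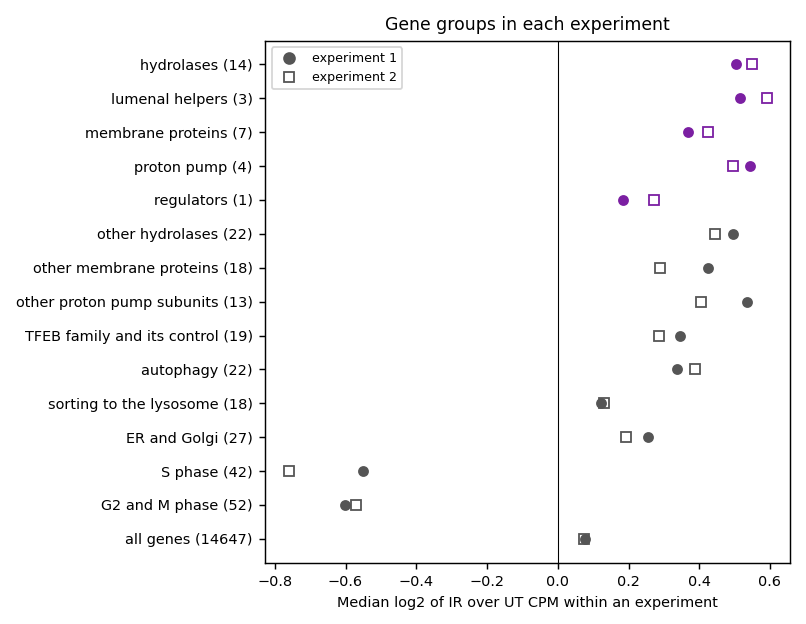
Median log2 ratio of CPM (IR over UT) within experiment 1 (circle) and experiment 2 (open square) for the 5 roles of the lysosomal set (purple), related gene lists and all genes tested (grey), with the number of genes in brackets. Hydrolases lie at 0.51 and 0.55, TFE3 alone at 0.19 and 0.27, the S phase genes at -0.55 and -0.76 and all genes at 0.08 and 0.07.

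The summed lysosomal UMIs per cell were shifted between the groups. In cells thinned to 8000 UMIs (231 and 232 IR cells, 333 and 356 UT cells; 16 and 16 IR cells and 25 and 11 UT cells were shallower), the 30 genes together gave a median of 41 and 43 UMIs per IR cell, against 30 and 31 per UT cell. Of the IR cells 77.9% and 80.2% exceeded the UT median of their own experiment, against 45.6% and 47.2% of the UT cells. PSAP, CD63 and GRN, the most abundant members, made up 38.4% and 41.2% of the summed UMIs in IR, against 36.1% and 36.8% in UT. Without these 3 the medians were 26 in both IR libraries, against 19 and 20 in UT, and 77.5% and 73.7% of the IR cells exceeded the UT median, against 45.3% and 44.1% of the UT cells. The interquartile ranges were 31 to 54.5 and 33.8 to 55 UMIs in IR, against 24 to 36 and 26 to 37 in UT, so the distributions overlapped while their centres and upper tails were apart.

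**Figure D4:**
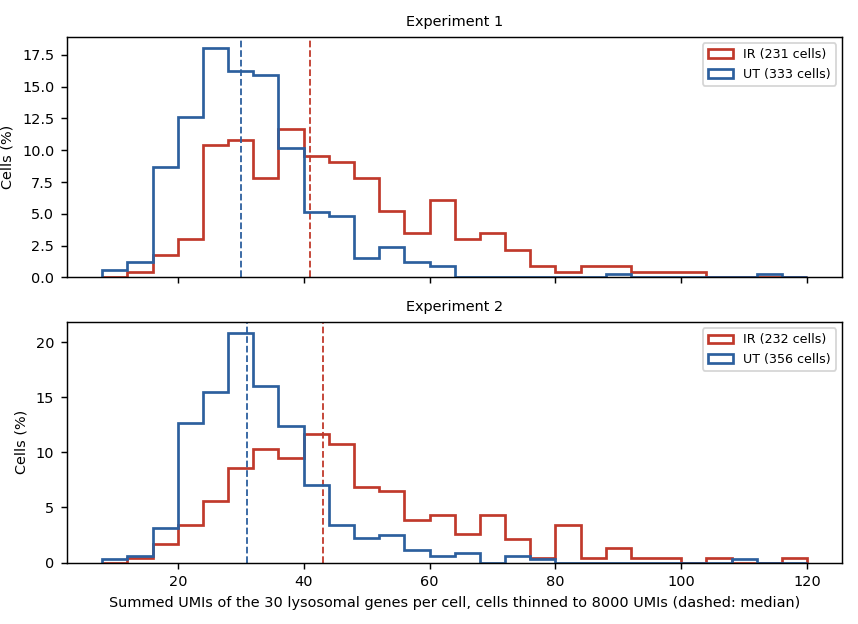
Share of cells (%) by summed UMIs of the 30 lysosomal genes per cell, after thinning to 8000 UMIs, for experiment 1 (top) and experiment 2 (bottom), in red for IR and blue for UT, with dashed lines at the medians. The medians are 41 in IR and 30 in UT for experiment 1 and 43 in IR and 31 in UT for experiment 2.

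Shares of cells with a given member were higher in IR in both experiments for NEU1, NPC1 and SGSH, which had large fold changes, but not for every member. PPT1 was seen in 90.9% and 88.8% of thinned IR cells, against 92.2% and 91.3% of thinned UT cells. NEU1 had at least 1 UMI in 63.6% (57.1 to 69.8, 95% exact binomial) and 56.9% (50.3 to 63.4) of thinned IR cells, against 33.3% (28.3 to 38.7) and 41.3% (36.1 to 46.6) of thinned UT cells. Without thinning the NEU1 shares were 84.6% and 83.9% in IR, against 53.1% and 62.4% in UT. NPC1 was seen in 42.0% and 46.6% of thinned IR cells, against 21.02% and 32.3% of thinned UT cells, and SGSH in 16.02% and 15.1%, against 6.61% and 8.15%. GLB1 gave a less clear picture cell by cell: 50.2% (43.6 to 56.8) and 43.1% (36.6 to 49.7) of thinned IR cells had a UMI, against 38.4% (33.2 to 43.9) and 43.0% (37.8 to 48.3) of thinned UT cells. In experiment 2 the GLB1 shares were level after thinning, while its mean UMIs per thinned cell were 0.651 in IR and 0.567 in UT. Without thinning they were 74.5% and 79.4% in IR, against 64.0% and 64.6% in UT.

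Lysosomal transcripts also varied with the cell cycle inside each library. Cells with more UMIs of 94 genes of S, G2 and M phase had fewer of the 30 genes, with Spearman correlations of -0.55 and -0.46 over the cells of the IR libraries and -0.44 and -0.41 over those of the UT libraries. Both sums come from the same thinned 8000 UMIs of a cell. Correlations with CDKN1A were weak (0.18 and 0.14 in IR, 0.29 and 0.24 in UT), as were those with depth before thinning (0.09 and 0.04 in IR, -0.04 and -0.11 in UT). After irradiation cycle genes were lower: the median log2 fold change was -0.71 in S phase, with 5 of 42 called lower without the block and 38 with it, and -0.67 in G2 and M phase, with 7 of 52 called lower without the block and 47 with it (0.847% of all genes without the block, 12.8% with it). MKI67 stood at 187 and 163.5 CPM in IR, against 423 and 369 CPM in UT. The median thinned cell held 44 and 50 cycle UMIs in IR, against 101 and 106 in UT.

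IR and UT were also compared among cells with fewer and with more cycle UMIs. Cells were divided at the median cycle UMIs of the UT cells of the same experiment, 101 and 106, which is a cut through a continuous range, with 32 to 60 cells per library within 10 UMIs of it. At or below the cut lay 171 and 183 IR cells (74.0% and 78.9%), against 170 and 181 UT cells (51.1% and 50.8%). The classes did not equalise the cycle: the median cell held 23 and 29 cycle UMIs in low-cycle IR cells, against 59 and 66 in low-cycle UT cells, and 119.5 and 131 in high-cycle IR cells, against 129 and 137 in high-cycle UT cells. S phase genes still had a median log2 fold change of -0.81 among low-cycle and -0.21 among high-cycle cells, and G2 and M phase genes of -0.20 and -0.14. Members were higher in the low-cycle cells of each library, with a median log2 ratio of low over high of 0.35 and 0.33 in IR, against 0.33 and 0.30 in UT. Of 29 members, 24 were higher there in all 4 libraries. Neither figure was computed over all genes, so they cannot set the members apart from other genes. GRN stood at 0.91 and 0.80 in IR, against 0.92 and 0.61 in UT, while GLA ran the other way, at -0.34 and -0.28 in IR, against -0.02 and -0.15 in UT.

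Within either class the median of the members was above 0 and below that over all cells, with the cycle genes differing inside the classes as given above. The part of the cycle in these values was not tested. The median log2 fold change was 0.32 among low-cycle cells and 0.31 among high-cycle cells, against 0.42 over all cells. Over all genes tested the median was -0.001 in low-cycle and -0.01 in high-cycle cells. Positive in both classes were 24 of 29 members, a share that was not computed over all genes. No member was called within a class without the block (background 0.741% and 0.528% of genes; SGSH had an edgeR adjusted p of 0.105 in low-cycle and 0.645 in high-cycle cells). With the block, added after the data were seen, 14 members were called higher among low-cycle cells (10.9% of genes tested there) and 7 among high-cycle cells (5.73%), and the 7 were called in both classes: NEU1, NPC2, GRN, NPC1, CD63, ATP6V0D1 and ATP6V1H. NEU1 had 122 and 123 CPM in low-cycle IR cells, against 72.5 and 77.6 CPM in low-cycle UT cells, and 95.7 and 95.4 CPM in high-cycle IR cells, against 51.1 and 59.8 CPM in high-cycle UT cells. Every IR value of NEU1, in either class, thus exceeded every UT value. GLB1 had 98.5 and 97.7 CPM in low-cycle IR cells, against 82.9 and 75.03 CPM in low-cycle UT cells, and 74.8 and 84.6 CPM in high-cycle IR cells, against 58.2 and 62.2 CPM in high-cycle UT cells. Its edgeR adjusted p with the block was 0.161 in low-cycle and 0.216 in high-cycle cells, so GLB1 was called in neither class. SGSH differed more among low-cycle cells, at 27.4 and 27.7 CPM in IR, against 9.94 and 14.9 CPM in UT, with 10.4 and 12.6 CPM in high-cycle IR cells, against 7.69 and 7.37 CPM in high-cycle UT cells, and the difference between the classes was not tested.

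**Figure D5:**
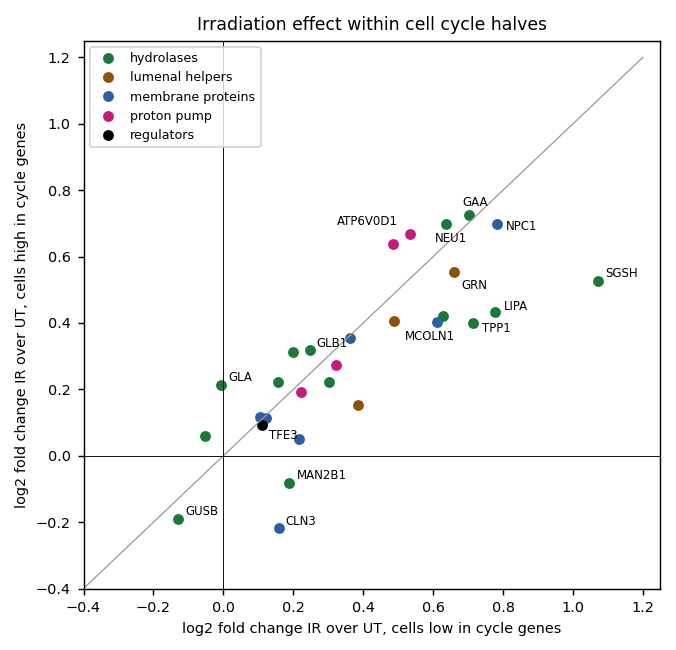
Log2 fold change (IR over UT, edgeR with group as the only term) of the 29 members among cells low in cycle genes (x axis) and cells high in cycle genes (y axis), coloured by role, with the line of equal values. NEU1 (0.64 and 0.70) and NPC1 (0.78 and 0.70) lie near the line, SGSH (1.07 and 0.53) below it, and GUSB is under 0 in both.

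Counts here are relative to each library's total. When libraries were scaled to their spike-ins with the block, the median of all genes moved to 0.61 and that of the members to 1.04 on the log2 scale, with 26 of 29 members called higher (34.2% of all genes). Of the 30 members, 16 share exon bases with another gene in GENCODE release 44, 8 with a gene on the same strand and 13 with a gene on the opposite strand, and the strand rule of the counting is not given in the sources used here. LIPA shares 65 and 94 exon bases with IFIT2 and IFIT3 on the other strand, and IDS and CLN3 share 6968 and 2480 with other genes on their own strand.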

How the data were processed

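Single U-2 OS cells were sorted into plates and processed by SORT-seq, which tags the 3′ end of polyadenylated RNA with a cell barcode and a UMI. The authors mapped reads with STARsolo to GRCh38, without intronic reads, reads shared between genes or a minimum of UMIs, and the submitters' processing notes list Seurat 5. The study's data statement names a GENCODE build of GRCh38 as its reference. Strand rule and UMI merging: not given in the sources used here. What the authors deposited are expected counts, since at least 99.9% of values lie on the correction of observed UMIs for 4096 possible 6-base tags, and none exceeded 138 in any cell. The design had assumed whole counts, so deposited values were summed per library and rounded. The 92 ERCC spike-ins (0.191% to 1.21% of counts) were kept out of library sizes.

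Sums of all deposited cells were compared, 2 IR against 2 UT libraries, by the quasi-likelihood F test of edgeR 4.0.16 under R 4.3.3 (filterByExpr, TMM, robust, two-sided, Benjamini-Hochberg over all genes, threshold 0.05). SE is the absolute log2 fold change over the square root of F. DESeq2 1.42.0 was an alternative. No doublet caller was run, since wells were sorted singly. The titles mark a shared experiment, which pairs the libraries. Over 14647 genes, same-numbered libraries deviated from their group means together (r = 0.635), and edgeR's common biological coefficient of variation fell to 0.0727 with the block, against 0.177 without it. Scripts were checked on simulated data. All 30 members are named; beyond them, the genes of each list called without the block and otherwise the 2 with the smallest p. The members and lists were chosen with earlier results of these data known, and no list test was run. Other alternatives were scaling, filtering, leaving out each library, equal cells, cycle classes, uncorrected UMIs and omission of genes averaging 20 or more per cell. Intervals are 95% exact binomial ones and cover counting error only.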

Additional observations from a re-analysis of the deposited data

Results flagged for a closer look

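GUSB and CLN3 moved in opposite directions in the 2 experiments. The log2 ratio of IR over UT CPM of GUSB was 0.10 in experiment 1 and -0.22 in experiment 2, and that of CLN3 was -0.029 in experiment 1 and 0.42 in experiment 2. With 1 library per group in each experiment, these differences were not tested.

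MAN2B1 differed in sign between the classes of cells. Among cells low in cycle genes its log2 ratio of IR over UT CPM was 0.30 in experiment 1 and 0.18 in experiment 2, whereas among cells high in cycle genes it was -0.014 in experiment 1 and -0.013 in experiment 2. The values in high-cycle cells lie close to 0, and the difference between the classes was not tested.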

How the results depend on the processing

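Of the 29 members tested, 1 was called higher after IR in the reported fit (1.63% of all genes). The members' median log2 fold change was 0.42. The experiment as a replicate block gave 18 called (14.3% of all genes) and spike-in scaling with the block 26 (34.2%). No filter gave 9 (3.57%), DESeq2 4 (2.33%), library totals 3 (2.01%) and equal cells 2 (1.47%). Low-cycle and high-cycle cells gave 0 each (0.741% and 0.528% of genes tested there). With the block they gave 14 and 7 (10.9% and 5.73%). With 1 library left out, its group then assumed to vary like the other, 0 to 1 were called. The block paired the libraries by experiment and changed the calls of 17 members. No alternative called a member lower.

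The median was 0.50 with library totals, 0.39 with no filter and 0.45 with equal cells. It was 0.32 in low-cycle cells (0.32 with the block) and 0.31 in high-cycle cells (0.31 with the block). Spike-in scaling with the block gave 1.04, and omission of genes averaging 20 or more counts per cell gave 0.40. With 1 library left out the median was 0.37 to 0.41.

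Signs turned in 8 members, each with a log2 fold change within 0.26 of 0 as reported. GUSB was positive with spike-in scaling (0.475). GLA was negative in low-cycle cells (-0.0075), MAN2B1 (-0.082, and -0.10 with the block) and CLN3 (-0.22 and -0.23) in high-cycle cells. PPT1, at 0.00048 as reported, was negative with the block (-0.0017), no filter (-0.0066), equal cells (-0.021) and DESeq2 (-0.00042). It was also negative in low-cycle cells (-0.052, and -0.050 with the block) and without genes averaging 20 or more counts per cell (-0.00065). With 1 library left out, values ranged from -0.16 to 0.26 for GLA, -0.10 to 0.64 for MAN2B1, -0.15 to 0.14 for PPT1, -0.0099 to 0.46 for LAMP1, -0.034 to 0.33 for SCARB2, -0.0038 to 0.24 for CLN3 and -0.0053 to 0.31 for TFE3. The cause was not tested.

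Depth limits the 7 members whose larger group mean was under 30 CPM, among them SGSH, MCOLN1 and TFEB. Uncorrected UMI counts changed no call or sign. With 2 libraries per group and 1 residual degree of freedom under the block, calls rest on the spread shared across genes.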
